A study of Mus musculus with 6 samples.

Results

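The genes described here are 10 genes of endothelial identity and angiogenesis, taken by symbol from the 770 genes of the panel: Pecam1, Cdh5, Eng, Vwf, Cd34, Mcam, Kdr, Nrp1, Vegfa and Vegfc. All 10 symbols were present and current in RefSeq, and all 10 lay above background in every library. RNA came from formalin-fixed primary tumours of mice whose oral squamous cell carcinoma had been induced with the chemical carcinogen 4NQO. One group of 3 samples came from animals given agonistic anti-CD40, an antibody that activates a receptor found on antigen-presenting cells and also on endothelium, and the other group of 3 from animals given vehicle. Both groups carried the carcinogen treatment, and the labels give neither the genetic background of the mice nor the dose, timing or isotype of the antibody. The samples are numbered 1 to 3 in each group and the labels do not tie them to separate animals, so each p-value below reflects sample-to-sample spread, part of which may be technical.

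Endothelial cells line blood and lymphatic vessels and are held together by junction proteins such as VE-cadherin. Vascular endothelial growth factors, made by tumour cells, macrophages and stroma, bind receptor tyrosine kinases on these cells and drive sprouting, permeability and survival, and neuropilins act as co-receptors. In bulk tumour RNA a lower level of an endothelial gene can mean fewer endothelial cells or less RNA per cell, and these cannot be told apart. Epithelial genes were present alongside. Of 5 squamous and carcinoma markers measured, Cdh1, Epcam and Egfr were above background in all 6 libraries, and Cd44 and Muc1 in 5 libraries each.

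Depth, as whole counts worked back from the deposited table, was 333400 to 497475 over the 770 genes in anti-CD40 libraries and 357258 to 578598 in vehicle libraries. Member counts ran from 84 for Vegfc in its lowest library to 2895 for Cd34 in its highest. The counting error at the lowest count of a member was 0.157 log2 for Vegfc and between 0.040 and 0.104 log2 for the other 9, against a median spread between samples of one group of 0.32 log2 (SD). Values below are log2 normalized counts, where 1 unit is a doubling, and differences are anti-CD40 minus vehicle. Levels are compared within a gene and not between genes, since each probe has its own efficiency.

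Of the 10 genes, 9 had a higher mean in anti-CD40 tumours and 1, Kdr, a lower mean, and none of these differences exceeded the spread between samples by enough to pass the test. Limma called 0 of the 10 and 0 of all 770 genes at an adjusted p of 0.05, which is 0% of the panel. Before adjustment, a p under 0.05 was reached by 0 of the 10 genes and by 25 of 770, or 3.25% of the panel. Limma-voom on the recovered counts made 0 calls, and there 26 genes reached a p under 0.05 before adjustment. The median difference was 0.21 over the 10 genes and 0.04 over all genes, of which 54.5% were higher. With vehicle 3 left out, 6 of the 10 were higher, and with anti-CD40 1 left out the mean difference of the 10 was 0.069, against 0.20 with all libraries. In no member did the groups separate. Over the panel 79 of the 770 genes, or 10.3%, had separate groups, 52 of them (6.75%) higher and 27 (3.51%) lower in anti-CD40 tumours. With only 10 genes, a count of 0 does not stand apart from that share. Full separation of 3 against 3 samples has an exact two-sided permutation p of 0.1, so the panel's share is near that expected from the order of samples alone.

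**Figure D1:**
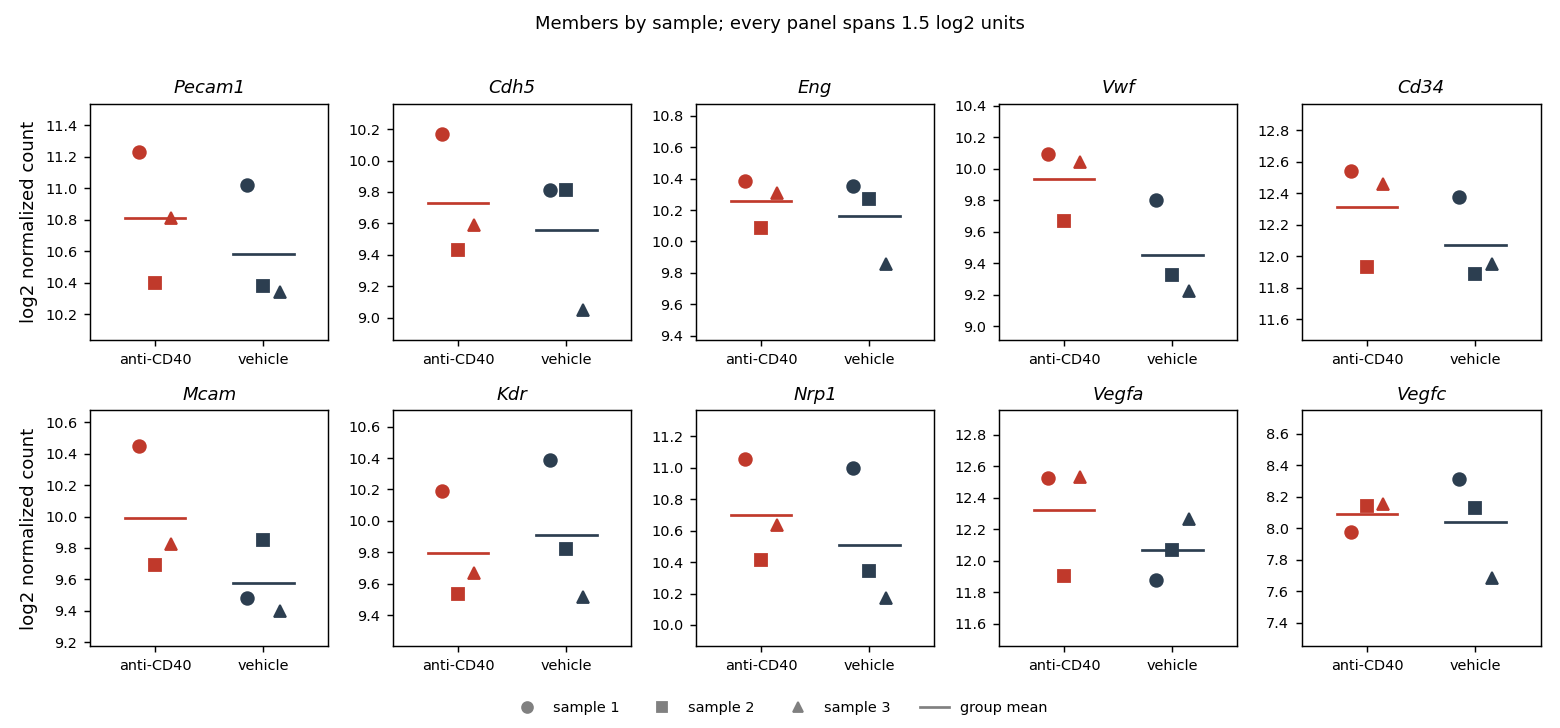
Log2 normalized count of each of the 10 genes in the 3 anti-CD40 samples (red, left) and the 3 vehicle samples (dark, right), with a line at the group mean. Marker shapes give the sample number, which does not pair samples. In every panel the groups overlap, with Vwf the nearest to separation: its anti-CD40 samples reach down to 9.67 and its vehicle samples up to 9.80.

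The 6 marker genes of endothelium came first. Pecam1 encodes CD31, an adhesion molecule of endothelial junctions that platelets and leukocytes also carry. It was 11.23, 10.40 and 10.81 in anti-CD40 samples 1, 2 and 3, against 11.02, 10.38 and 10.34 in vehicle samples 1, 2 and 3. The highest sample of each group was its sample 1, and the groups overlapped over nearly their whole range. The difference was 0.23 (SE 0.31, 95% confidence interval −0.49 to 0.96) and 0.027 without anti-CD40 1.

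Cdh5 encodes VE-cadherin, the adherens junction protein most closely tied to endothelium. It was 10.17, 9.43 and 9.59 in anti-CD40 samples, against 9.81, 9.81 and 9.05 in vehicle samples. Vehicle 3 was the lowest library and anti-CD40 1 the highest. The difference of 0.17 (SE 0.32, interval −0.57 to 0.91) turned to −0.081 without vehicle 3 and to −0.046 without anti-CD40 1.

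Eng encodes endoglin, a co-receptor for ligands of the transforming growth factor beta family on proliferating endothelium. It was 10.39, 10.08 and 10.31 in anti-CD40 samples, against 10.35, 10.27 and 9.86 in vehicle samples. Its span over the 6 libraries, 0.53, was the narrowest of the 10 genes. The difference was 0.10 (SE 0.24, interval −0.45 to 0.65) and −0.052 without vehicle 3.

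Vwf encodes von Willebrand factor, which endothelial cells store and release to tether platelets and which platelets also contain. It was 10.10, 9.67 and 10.05 in anti-CD40 samples, against 9.80, 9.33 and 9.23 in vehicle samples. Only vehicle 1 reached into the anti-CD40 range, above anti-CD40 2. Its difference was the largest of the 10, 0.49 (SE 0.26, interval −0.11 to 1.08), a 1.40-fold higher level with an interval from 0.925 to 2.12. The limma adjusted p was 0.974, and with 1 library left out the difference lay between 0.37 and 0.66.

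Cd34 encodes a sialomucin of small-vessel endothelium, haematopoietic progenitors and some fibroblasts. It was 12.54, 11.93 and 12.46 in anti-CD40 samples, against 12.38, 11.89 and 11.95 in vehicle samples. Anti-CD40 2 lay with the 2 lower vehicle samples, and vehicle 1 with the 2 higher anti-CD40 samples. The difference was 0.24 (SE 0.27, interval −0.38 to 0.86), 0.12 without anti-CD40 1 and 0.43 without anti-CD40 2.

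Mcam encodes CD146, an adhesion molecule of endothelial cells and pericytes. It was 10.45, 9.69 and 9.83 in anti-CD40 samples, against 9.48, 9.85 and 9.40 in vehicle samples. Anti-CD40 1 stood 0.60 or more above every other library, while vehicle 2 exceeded the other 2 anti-CD40 samples. The difference was 0.41 (SE 0.28, interval −0.24 to 1.07) and 0.18 without anti-CD40 1.

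Of the receptors, Kdr encodes VEGFR2, the main signalling receptor for VEGF-A on blood endothelium. It was 10.19, 9.53 and 9.67 in anti-CD40 samples, against 10.39, 9.82 and 9.51 in vehicle samples. Vehicle 1 was the highest library and vehicle 3 the lowest, so the vehicle samples spanned the anti-CD40 range. The difference was −0.11 (SE 0.31, interval −0.84 to 0.61), and its sign turned without vehicle 1 (0.13) and without anti-CD40 2 (0.02).

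Nrp1 encodes neuropilin 1, a co-receptor that presents VEGF-A to VEGFR2 and is also carried by some dendritic cells, macrophages and regulatory T cells. It was 11.06, 10.41 and 10.63 in anti-CD40 samples, against 11.001, 10.35 and 10.17 in vehicle samples. As with Pecam1, sample 1 was the highest of each group. The difference was 0.20 (SE 0.30, interval −0.52 to 0.91), 0.017 without anti-CD40 1 and 0.44 without vehicle 1.

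Of the ligands, Vegfa encodes VEGF-A, the principal angiogenic factor, whose transcription rises under hypoxia. It was 12.52, 11.90 and 12.53 in anti-CD40 samples, against 11.88, 12.07 and 12.26 in vehicle samples. Anti-CD40 1 and 3 lay above all vehicle samples, and anti-CD40 2 lay beside the lowest vehicle sample. The difference was 0.25 (SE 0.26, interval −0.36 to 0.86), and with 1 library left out it lay between 0.14 without anti-CD40 3 and 0.46 without anti-CD40 2. Vegfc encodes VEGF-C, the main growth factor of lymphatic vessels through VEGFR3. It was 7.98, 8.14 and 8.15 in anti-CD40 samples, against 8.31, 8.13 and 7.68 in vehicle samples. The anti-CD40 samples lay inside the vehicle range, and the difference was 0.05 (SE 0.24, interval −0.52 to 0.62), −0.13 without vehicle 3.

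**Figure D2:**
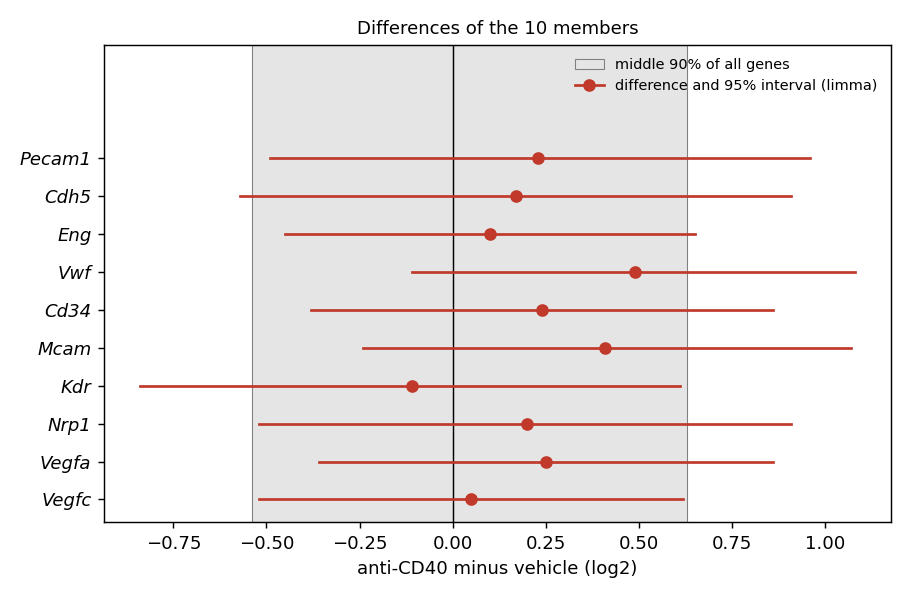
Difference in log2 normalized counts, anti-CD40 minus vehicle, for each of the 10 genes (point) with the 95% confidence interval of the limma fit (line). The grey band, from −0.54 to 0.63, holds the middle 90% of the differences of all 770 genes. Every interval spans 0, and all 10 points lie within the band.

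The adjusted p was 0.974 for 9 of the genes and 0.976 for Vegfc. The intervals bound what these samples can exclude: their upper ends ran from 0.61 for Kdr to 1.08 for Vwf and their lower ends from −0.84 for Kdr to −0.11 for Vwf. The median half-width was 0.64 log2 for the 10 genes and 0.71 for all genes.

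The members varied between libraries more than between groups, and largely together. Within the anti-CD40 group, sample 1 was the highest for 8 of the 10 genes, all but Vegfa and Vegfc, and sample 2 was the lowest for 9, all but Vegfc. Of the 523 genes above background in all libraries, 35.8% were highest in anti-CD40 1 and 30.8% lowest in anti-CD40 2. Within the vehicle group, sample 1 was the highest for 8 genes and sample 3 the lowest for 8, against 52.6% and 64.1% of the 523 genes. The order within the vehicle group was thus shared with much of the panel, whereas in the anti-CD40 group the members did not follow the panel. Centred on each gene's mean, the 10 genes averaged 0.37, −0.17 and 0.11 in anti-CD40 samples 1, 2 and 3, against 0.15, −0.11 and −0.35 in vehicle samples 1, 2 and 3. For the 523 genes these averages were −0.01, 0.08 and −0.02 in the anti-CD40 samples, against 0.15, 0.07 and −0.27 in the vehicle samples.

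**Figure D3:**
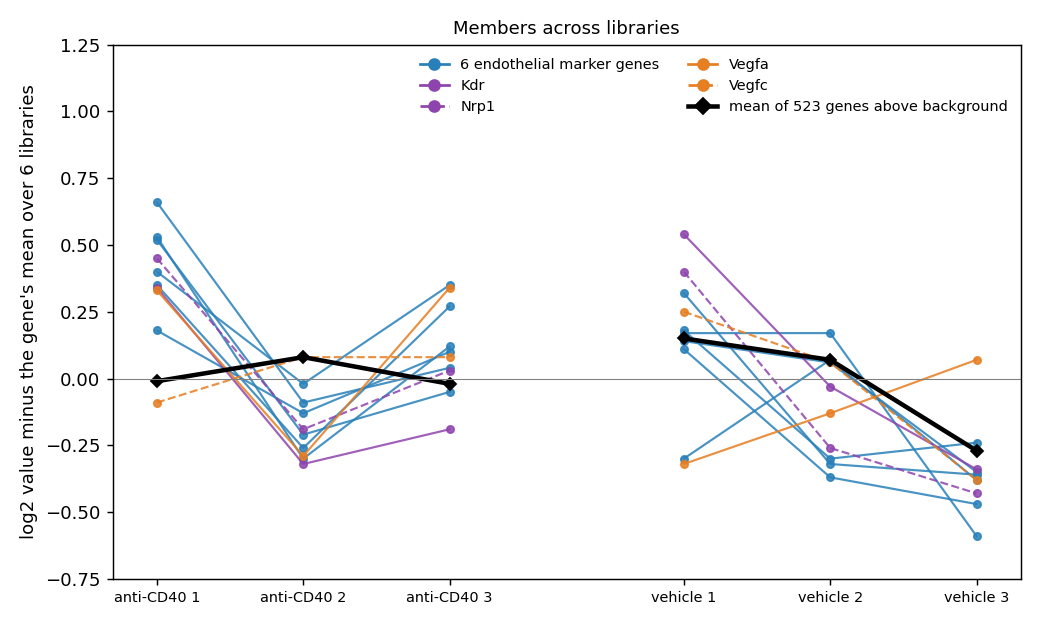
Log2 value minus the gene's mean over the 6 libraries for the 6 endothelial marker genes (blue), Kdr and Nrp1 (purple), Vegfa and Vegfc (orange) and the mean of the 523 genes above background in all libraries (black). Lines join the values of a gene and stand for no order of the samples. Anti-CD40 1 is high and anti-CD40 2 low for the marker genes while the panel mean stays near 0, and in vehicle 3 the panel mean itself is −0.27.

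Vegfa departed from this pattern in the vehicle group, where it was lowest in sample 1 and highest in sample 3, the reverse of Pecam1, Cdh5, Eng, Vwf, Kdr, Nrp1 and Vegfc. In the anti-CD40 group its sample 2 was the lowest, as for every other member but Vegfc. Hif1a, which encodes the oxygen-regulated subunit of the hypoxia-inducible factor, was 12.49, 14.35 and 12.67 in anti-CD40 samples, against 13.42, 13.47 and 14.00 in vehicle samples. The library lowest in Hif1a, anti-CD40 1, was among the 2 highest in Vegfa, and the library highest in Hif1a, anti-CD40 2, was among the 2 lowest. Within the vehicle group, however, Hif1a and Vegfa had the same order, both lowest in sample 1 and highest in sample 3. The 2 genes thus held no single relation over the libraries. Hif1a was the only gene of 12 listed for hypoxia and glycolysis that the panel measured, and the hypoxia-inducible factor is regulated mainly at the protein level.

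The promoters of the genes that varied together, Eng, Cd34, Nrp1 and Kdr, and of Vegfa, which departed from them, are shown so that their sequences can be compared. They come from RefSeq on GRCm38.p6, each from 250 bases before to 50 bases after an annotated start, 5′ to 3′ on the gene's strand. Windows were found for 7 of the 10 genes, all but Pecam1, Cdh5 and Vwf. Capitals mark every match, on either strand, to 5 motifs. These were AGGAAG for ETS factors, which include regulators of endothelial genes, then AGATAA for factors of the GATA family, ACAATGG for factors of the SOX family, GTAAACA for factors of the FOX family and ACGTG for the hypoxia response core.
Eng promoter, chr2:32646345-32646644, plus strand: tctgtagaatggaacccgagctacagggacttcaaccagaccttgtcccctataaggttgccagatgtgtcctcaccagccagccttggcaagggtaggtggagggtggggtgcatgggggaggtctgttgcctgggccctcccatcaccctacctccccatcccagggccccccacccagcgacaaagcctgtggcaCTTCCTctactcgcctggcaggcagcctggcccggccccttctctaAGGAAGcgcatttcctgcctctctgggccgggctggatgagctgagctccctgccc
Cd34 promoter, chr1:194938571-194938870, plus strand: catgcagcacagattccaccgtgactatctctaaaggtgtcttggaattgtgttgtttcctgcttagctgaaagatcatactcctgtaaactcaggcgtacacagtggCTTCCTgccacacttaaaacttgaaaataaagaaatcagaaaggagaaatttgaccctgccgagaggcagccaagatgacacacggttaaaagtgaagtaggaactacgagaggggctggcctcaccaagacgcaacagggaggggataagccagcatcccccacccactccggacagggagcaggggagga
Nrp1 promoter, chr8:128358823-128359122, plus strand: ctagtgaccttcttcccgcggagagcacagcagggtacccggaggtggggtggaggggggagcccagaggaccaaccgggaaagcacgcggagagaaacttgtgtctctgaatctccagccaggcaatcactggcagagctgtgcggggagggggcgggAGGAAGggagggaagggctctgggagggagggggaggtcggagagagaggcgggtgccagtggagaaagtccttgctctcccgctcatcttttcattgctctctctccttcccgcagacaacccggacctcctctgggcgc
Kdr promoter, chr5:75978406-75978705, minus strand: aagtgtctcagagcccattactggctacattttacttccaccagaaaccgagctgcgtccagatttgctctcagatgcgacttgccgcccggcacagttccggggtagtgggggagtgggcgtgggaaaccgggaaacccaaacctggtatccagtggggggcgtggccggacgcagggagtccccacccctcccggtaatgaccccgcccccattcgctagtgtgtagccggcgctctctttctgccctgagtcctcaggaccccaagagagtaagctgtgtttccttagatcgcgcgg
Vegfa promoter, chr17:46032328-46032627, minus strand: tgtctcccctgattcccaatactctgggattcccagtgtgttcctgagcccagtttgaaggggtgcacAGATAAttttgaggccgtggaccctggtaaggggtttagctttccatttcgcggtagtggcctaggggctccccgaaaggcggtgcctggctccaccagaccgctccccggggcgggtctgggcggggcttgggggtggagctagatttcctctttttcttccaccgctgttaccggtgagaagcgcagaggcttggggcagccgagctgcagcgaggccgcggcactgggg
AGGAAG or its reverse complement stood in the windows of Eng, 52 and 6 bases before the start, Cd34, 142 bases before, and Nrp1, 91 bases before. These are 3 of 8 windows, since Vegfa has 2, and 35.4% of all 32851 promoter windows of this length held it. Its match was thus about as frequent among the members as in promoters at large. AGATAA stood in the Vegfa window shown and in 11.2% of all windows. The hypoxia response core was absent from that window and present in the other Vegfa window, at chr17:46025114-46025413, and in 19.6% of all windows. That other window belongs to a start inside the gene and not upstream of it, since the gene spans 46016993 to 46032377. The Nrp1 and Kdr windows shown also lie wholly inside their genes, which span 128358591 to 128505476 and 75932827 to 75979072. The Nrp1 match, 91 bases before an annotated start, is thus within the gene, and the Kdr window shown is not the sequence upstream of the gene. The SOX and FOX letters had 0 matches among the members and stood in 3.66% and 3.65% of all windows, and Kdr, Mcam and Vegfc held none of the 5 motifs. A match is a run of letters and not a bound site.

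Because the members varied together, each was also set against the others within a library, a comparison chosen after the single values were seen. Of the 45 ratios between members, 6 had groups that did not overlap, or 13.3%, while 12.1% of the 136503 ratios among the 523 genes did so. The number of separated ratios was therefore near that of the panel. Of these 6, 4 involved Kdr, which is 4 of its 9 ratios. Of the 522 ratios of Kdr to any other gene above background, 45 had separate groups, or 8.62%, and 40, or 7.66%, were wholly lower in anti-CD40 tumours. The ratios of Kdr share its values and are not independent of each other. Kdr was the only member with a lower mean, so all 9 of its ratios were bound to be lower in the mean. Its 4 of 9 therefore cannot be weighed against the share over all genes.

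The ratios of Kdr with separate groups were those to Nrp1, Pecam1, Vwf and Mcam. The log2 ratio of Kdr to Nrp1, receptor to co-receptor, was −0.87, −0.88 and −0.97 in anti-CD40 samples, against −0.61, −0.53 and −0.66 in vehicle samples. The groups lay apart, at −0.90 ± 0.05 in anti-CD40 and −0.60 ± 0.07 in vehicle samples (SD, n = 3 each), a difference of −0.31. Counting error alone gives this ratio an SD of 0.069 to 0.11 in a library. The log2 ratio of Kdr to Pecam1 was −1.04, −0.87 and −1.15 in anti-CD40 samples, against −0.63, −0.56 and −0.83 in vehicle samples. Anti-CD40 2 and vehicle 3 were the nearest samples, only 0.04 apart by these values.

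Against Vwf the Kdr ratio was 0.09, −0.14 and −0.38 in anti-CD40 samples, against 0.59, 0.50 and 0.29 in vehicle samples. Against Mcam it was −0.26, −0.16 and −0.16 in anti-CD40 samples, against 0.91, −0.03 and 0.11 in vehicle samples, where vehicle 1 stood far above the rest. Relative to the mean of the 6 marker genes, Kdr was −0.62, −0.67 and −0.84 in anti-CD40 samples, against −0.08, −0.43 and −0.46 in vehicle samples. The difference was −0.38, and −0.26 without vehicle 1. It is given as a description, since Kdr was singled out after its values were seen. Against Cdh5, Eng, Cd34, Vegfa and Vegfc the Kdr ratios overlapped between the groups.

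**Figure D4:**
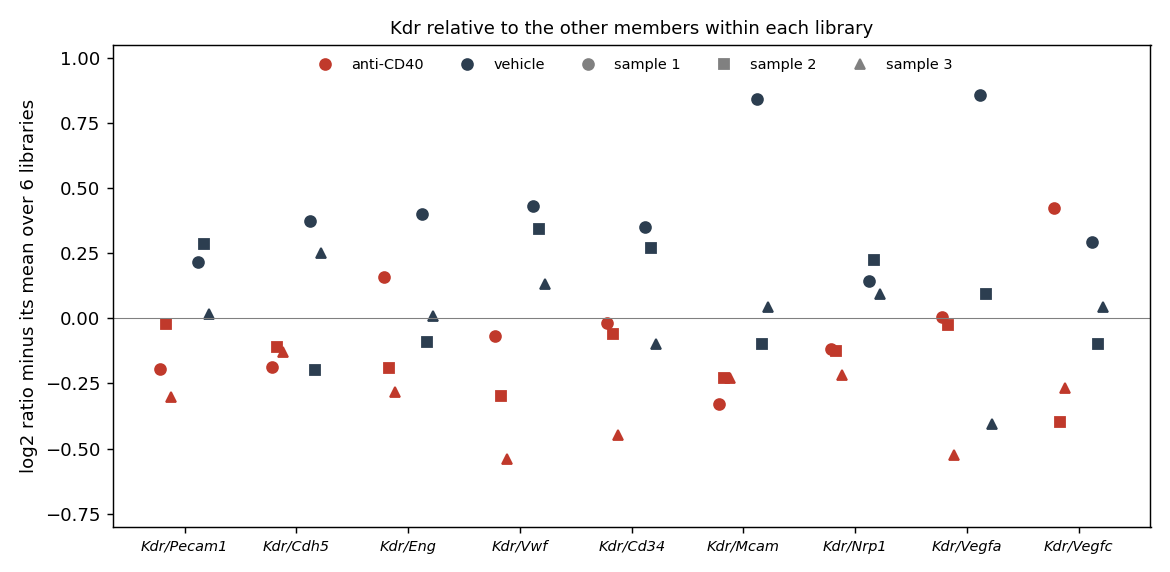
Log2 ratio of Kdr to each of the other 9 genes within a library, minus the mean of that ratio over the 6 libraries, for anti-CD40 samples (red, left) and vehicle samples (dark, right). Marker shapes give the sample number. The groups lie apart for the ratios to Pecam1, Vwf, Mcam and Nrp1 and overlap for the other 5.

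The remaining separated ratios both involved Vwf. Eng relative to Vwf was 0.29, 0.41 and 0.26 in anti-CD40 samples, against 0.55, 0.94 and 0.63 in vehicle samples. Vwf relative to Cd34 was −2.45, −2.26 and −2.41 in anti-CD40 samples, against −2.57, −2.56 and −2.73 in vehicle samples. Platelets contain von Willebrand factor, and the 3 of 12 listed platelet markers measured, Ppbp, Itga2b and Itgb3, had higher means as well. Their summed normalized count was 1586, 763 and 2224 in anti-CD40 samples 1, 2 and 3, against 313, 1281 and 373 in vehicle samples 1, 2 and 3, with overlap. In the anti-CD40 group sample 2 was the lowest in both Vwf and this sum. In the vehicle group sample 1 was the highest in Vwf and the lowest in the sum. The part of platelets in the Vwf values was not tested.

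Other genes of endothelium and angiogenesis were taken from a list of 95, of which the panel measured 37, all above background in every library. Limma called 0 of the 37 in either direction. In the mean 25 were higher and 12 lower, or 67.6% higher against 54.5% of all genes, with a median difference of 0.28 that was 0.084 without vehicle 3. At an unadjusted p under 0.05 stood 2 of the 37, Lyve1 and Itga5. The groups did not overlap in 6 higher and 2 lower genes, 16.2% and 5.41% of the 37, against 6.75% and 3.51% of the panel. Among the 523 genes above background in all libraries, the closer comparison, 39 were separated higher and 22 lower.

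Lyve1 encodes a receptor for hyaluronan on lymphatic vessels and certain macrophages. It was 9.47, 8.60 and 9.10 in anti-CD40 samples, against 8.21, 8.35 and 7.98 in vehicle samples. All 3 anti-CD40 samples lay above all 3 vehicle samples, by 0.88 in the mean (SE 0.28, limma adjusted p = 0.974). Of 12 macrophage and monocyte markers measured, 8 had a higher and 4 a lower mean in anti-CD40 samples. The lower ones were Ccr2 (−0.46), Cx3cr1 (−0.34), Fcgr1 (−0.2) and Cd68 (−0.13). Among the higher ones, the scavenger and mannose receptor genes Cd163 and Mrc1 separated as Lyve1 did, but narrowly. In both, anti-CD40 2 lay only just above the highest vehicle sample. Cd163 was 8.995, 8.33 and 8.39 in anti-CD40 samples, against 8.09, 8.28 and 7.33 in vehicle samples. Mrc1 was 9.81, 9.50 and 9.65 in anti-CD40 samples, against 9.49, 9.40 and 8.91 in vehicle samples. The part of macrophages in the Lyve1 values was not tested. Ccl21a, a chemokine of lymphatic endothelium and lymphoid stroma and the only other lymphatic marker measured, was 11.70, 11.39 and 11.28 in anti-CD40 samples, against 12.61, 11.39 and 10.96 in vehicle samples, and its groups overlapped. Vegfc, the lymphatic growth factor, had no separation either.

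The genes of vessel wall and integrins next in order of p were Itga5, Itgb3 and Col4a1. Itga5, the fibronectin receptor subunit, was 8.19, 8.08 and 8.22 in anti-CD40 samples, against 7.70, 7.77 and 7.23 in vehicle samples, with the groups apart. Itgb3, a subunit of the vitronectin receptor and of the platelet fibrinogen receptor, was 8.50, 8.11 and 8.49 in anti-CD40 samples, against 6.91, 8.39 and 7.40 in vehicle samples, with vehicle 2 among the anti-CD40 values. Col4a1, a chain of the collagen IV of vascular and epithelial basement membranes, was 11.23, 10.91 and 11.21 in anti-CD40 samples, against 10.66, 10.87 and 10.63 in vehicle samples, with the groups narrowly apart. All 3 had an adjusted p of 0.974.

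Signalling genes went both ways. Notch1, a receptor that restrains endothelial sprouting and also acts in squamous epithelium, was 10.42, 10.87 and 10.60 in anti-CD40 samples, against 11.14, 10.90 and 11.40 in vehicle samples. Its groups were apart by 0.03, and the difference was −0.52 (SE 0.24). Tnfsf12, which encodes the angiogenic cytokine TWEAK, was 9.17, 8.99 and 9.43 in anti-CD40 samples, against 8.97, 8.36 and 8.72 in vehicle samples. Cspg4, which encodes the pericyte proteoglycan NG2, was 9.35, 9.21 and 9.07 in anti-CD40 samples, against 9.48, 9.76 and 9.48 in vehicle samples. Thbs1, which encodes the angiogenesis inhibitor thrombospondin 1, was 11.02, 9.99 and 12.07 in anti-CD40 samples, against 10.65, 10.05 and 9.90 in vehicle samples, and its difference of 0.83 was 0.31 without anti-CD40 3. Limma gave each of these 4 an adjusted p of 0.974.

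The gene whose profile over the 6 libraries was nearest to the endothelial pattern, the mean of the 6 marker genes and Kdr after centring, was Tie1. It encodes an endothelial receptor tyrosine kinase of the angiopoietin system and took no part in the choice of members. Its root mean square difference from the pattern was 0.087 log2, against a median of 0.346 over the 513 genes compared. Tie1 was 10.07, 9.21 and 9.52 in anti-CD40 samples, against 9.74, 9.42 and 9.05 in vehicle samples. It was highest in anti-CD40 1 and lowest in vehicle 3, as were Cdh5, Eng, Vwf, Mcam, Pecam1 and Nrp1.

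Next came Irak2 (0.092), an adaptor kinase of Toll-like and interleukin 1 receptor signalling, Cd200 (0.094), an inhibitory ligand found on endothelium among other cells, Ifngr1 (0.096), the interferon gamma receptor chain, and Tfrc (0.097), the transferrin receptor. These 4 are expressed by many cell types, and nearness over 6 libraries that share panel-wide shifts is a description. Tek, the angiopoietin receptor that pairs with Tie1, ranked 12 of 513 at 0.128. Among the 7 genes that make up the pattern the distance was 0.126 for Pecam1 and Eng, 0.131 for Cd34, 0.156 for Cdh5, 0.171 for Vwf, 0.203 for Kdr and 0.23 for Mcam. Of the members outside it, Nrp1 lay at 0.118, Vegfc at 0.25 and Vegfa at 0.296.

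Markers of other cell types that carry some of the members were summed as normalized counts. In such a sum the genes with the highest counts weigh most, Col1a1 and Col3a1 among the fibroblast markers. Fibroblast and pericyte markers, with 10 of 19 measured and 8 above background in all libraries, summed to 23994 to 38029 in anti-CD40 samples and 17724 to 32186 in vehicle samples. Within the anti-CD40 group, sample 2 was the highest for the collagen genes Col1a1 (12.41, 13.57 and 12.17 in samples 1, 2 and 3) and Col3a1 (13.88, 14.44 and 14.12). It was also the highest for Thy1 (9.89, 10.32 and 9.93), Pdgfc (8.03, 8.46 and 7.31) and Snai1 (6.48, 7.19 and 6.83). Sample 2 was the lowest for Fap (9.08, 8.51 and 8.90), Pdgfrb (8.94, 8.78 and 9.18) and Tnfrsf11b (6.10, 5.28 and 6.27, above background in 3 of 6 libraries). For Cspg4 and Twist1 it lay in the middle. The markers of this list thus shared no single order, whereas sample 2 was the lowest for 9 of the 10 endothelial and angiogenesis genes. Macrophage and monocyte markers, with 12 of 14 measured, summed to 4979 to 6313 in anti-CD40 samples and 3684 to 5903 in vehicle samples. Mast cell and progenitor markers, which can accompany Cd34, had 6 of 10 measured and 2 above background in all libraries, and summed to 884 to 1091 in anti-CD40 samples and 651 to 917 in vehicle samples.

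Of 15 listed squamous and carcinoma markers 5 were measured, of which 2 were higher and 3 lower in the mean of anti-CD40 samples. Their summed count was 6869 to 7938 in anti-CD40 samples and 8484 to 9154 in vehicle samples, and Cdh1 was the only one of the 5 whose groups did not overlap. Cdh1, which encodes E-cadherin, was 12.01, 12.13 and 11.94 in anti-CD40 samples, against 12.51, 12.25 and 12.41 in vehicle samples. Epcam, an epithelial adhesion molecule, was 11.34, 11.02 and 10.38 in anti-CD40 samples, against 10.16, 11.52 and 11.40 in vehicle samples, and the differences of Egfr, Muc1 and Cd44 were 0.12, 0.01 and −0.08. The summed count of the 6 endothelial markers was 13352, 8678 and 11434 in anti-CD40 samples 1, 2 and 3, against 11212, 8818 and 7992 in vehicle samples 1, 2 and 3. Cd34, which had the highest counts of the 6 in every library, weighs most in this sum. The endothelial sums overlapped between the groups, and the part of tumour cell content in them was not tested.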

How the data were processed

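Total RNA was taken from fixed, embedded tumour tissue, per the labels' protocols. The single table the authors deposited holds log2 normalized counts in 784 rows: 770 genes, 6 positive controls and 8 negative controls. Platform, counting software and normalization: not given in the sources used here. Each of the 4704 values, taken out of the logarithm, was a multiple of a step fixed for its library plus 4.552 (tolerance 0.05 counts), so background had not been subtracted. The background limit was set per library at 2 SD above the negative control mean, or 5.57 to 6.52 log2.

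The groups were compared with limma 3.58.1 in R 4.3.3 (lmFit and eBayes, two-sided, Benjamini-Hochberg over 770 genes, threshold 0.05) on the deposited log2 values. The procedure was tested on simulated data with independent noise for each gene and added changes larger than any difference of the members. It held no shifts shared by a whole library, so it does not tell how differences of the size seen here would fare. Python 3.11.15 was used for summaries. Alternatives were quantile normalization, centring on 20 housekeeping genes, a filter on low values, limma-voom on the recovered counts, log2 of scaled counts plus 1, trend with robust eBayes, the replicate number as a block and each library left out.

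The members and lists were chosen with earlier results of these data known. The text names the 10 members, the 8 other vascular genes of lowest p that lay above background in all libraries, and the 5 genes nearest in profile. Hif1a, Ccl21a, Tek and the cell type markers named singly were chosen after their values were seen, from the lists. Protein sequences were not used here.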

Additional observations from a re-analysis of the deposited data

How the results depend on the processing

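Over 13 alternatives limma called 0 of the tested genes in every setting, and 0 of 130 values of the 10 members passed the adjusted threshold, with a lowest adjusted p of 0.666. Of the 130 values 124 kept their direction. The 6 that turned were all from settings that left out 1 library: −0.046 for Cdh5 without anti-CD40 1, −0.081 for Cdh5, −0.052 for Eng and −0.13 for Vegfc without vehicle 3, and 0.13 and 0.02 for Kdr without vehicle 1 and without anti-CD40 2. With 1 library left out the differences ranged from −0.081 to 0.32 for Cdh5, −0.052 to 0.20 for Eng, −0.13 to 0.18 for Vegfc and −0.31 to 0.13 for Kdr. The mean difference of the 10 genes was 0.20, between 0.069 and 0.34 with 1 library left out and 0.12 after quantile normalization. Kdr relative to the 6 marker genes lay between −0.45 and −0.26 with 1 library left out, a quantity added after the data were seen. The count of genes at an unadjusted p under 0.05 was 25, but 52 after quantile normalization and 13 to 49 with 1 library left out. With the replicate number as a block the mean difference of the members was 0.20 and 32 genes stood at an unadjusted p under 0.05. Same-numbered samples did not deviate together over all genes (correlations of −0.427, 0.0693 and 0.277), so the numbers were not treated as pairs. Counting error was at most 0.104 log2 for 9 members and 0.157 for Vegfc, whose SD between samples was 0.10 in anti-CD40 and 0.32 in vehicle samples.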
